A study of Mus musculus with 696 samples.

Results

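The 4 genes described here, Krt1, Krt10, Krt2 and Krt77, encode keratins of the suprabasal epidermis. They were chosen by name, and they are 4 of the 15652 genes, among them 37 keratin genes, in a table of estimated read counts from 696 single cells. The cells were tail skin keratinocytes of mice in which Lrig1, expressed by stem cells of the junctional zone of the follicle, had been used to mark a lineage. Full-length cDNA of each cell was sequenced with the Smart-seq2 protocol. The design asks how the progeny of these stem cells differ before a wound, during repair, after repair and during the repair of a second wound.

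All cells came from female mice of a mixed CBA C57BL/6 background that carried Lrig1-EGFP-ires-CreERT2 and Rosa26-fl/STOP/fl-tdTomato. In these mice hydroxytamoxifen activates a Cre recombinase made under the control of Lrig1, and the cells that expressed it, with all their progeny, then make the red protein tdTomato. Mice received a single topical dose on the tail at 6 to 8 weeks of age, and tdTomato-positive epidermal cells were sorted later, so a sorted cell is a descendant of a Lrig1 cell but need not express Lrig1 itself. The 0w group was taken 1 week after labelling and had no wound (179 cells). The 1w pw1 group was taken 1 week after a full-thickness punch wound of 2 mm (168 cells), and the 8w pw1 group 8 weeks after it (172 cells). The 1w pw2 group, labelled 9w, was taken 1 week after a second wound that overlapped the first and was made at 8 weeks (177 cells). Mice of the last 2 groups were thus older when sampled, so time after wounding and age cannot be told apart. The sampled zone took in the wound bed together with more distant follicles.

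Each group held 2 plates of 79 to 91 cells, with 12293095 to 19760763 counts per plate and a median of 132595 counts per cell (3551 to 1895079). The plate was the unit of replication in every test. The labels do not say that the 2 plates of a time point came from separate animals, so p-values measure the spread between plates, which may be technical. The paper describes 2 independent experiments with 4 biological replicates each, and the labels do not tie these to plates. In the sample titles each time point has its own Rep letter, whose meaning is not given. What this letter stands for cannot be told apart from time point in any comparison. Basal keratinocyte markers were present on all 8 plates. The 4 immune markers in the table summed to at most 34.1 CPM (counts per 1000000 counts) on any plate, the 5 fibroblast markers to 29.5 CPM and the 2 melanocyte markers to 7.65 CPM. Cd207, Lyz2, Col3a1, Mlana and Tyrp1 of these lists and Cdh5 of the endothelial list were not in the table used here. The other endothelial markers, Pecam1 and Kdr, summed to 94.5 to 1812 CPM, with Kdr at 0 on 6 of 8 plates.

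Keratins are the intermediate filament proteins of epithelia. A filament is built from pairs of a type I and a type II keratin, and Krt10 is type I, whereas Krt1, Krt2 and Krt77 are type II. Basal keratinocytes make Krt5 and Krt14, and cells that leave the basal layer switch to Krt1 and Krt10, which give the spinous layer its strength. Krt2 is added in the upper spinous and granular layers and is prominent in mouse tail and foot skin, where it is found with Krt10 between the scales. Krt77 is a less abundant type II keratin of the epidermis and of gland ducts.

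In GENCODE vM21 (GRCm38), the 3 type II genes lie close together on chromosome 15, all on the minus strand. Krt2 spans chr15:101810689-101818169, Krt1 chr15:101845426-101850794 and Krt77 chr15:101858731-101869705. Krt10 lies on chromosome 11, on the minus strand, at chr11:99385254-99389364. Each value below is the sum over all transcripts of a gene. No 75-base stretch of the principal transcript of any of the 4, the length of a read, occurred in a transcript of another gene, so reads of these genes can be told from those of other keratins where they match exactly.

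No window for Krt1 was among the promoter sequences used, so Krt1 is left out here. The 250 bases before the transcription start are shown for Krt10 and Krt2, which were both called higher 1 week after the first wound, and for Krt77, which was not. They were taken from RefSeq (GRCm38.p6) and are written 5′ to 3′ on the coding strand, with the TATA box letters TATAAA or TATATA in capitals.
Krt10, chr11:99389365-99389614, minus strand: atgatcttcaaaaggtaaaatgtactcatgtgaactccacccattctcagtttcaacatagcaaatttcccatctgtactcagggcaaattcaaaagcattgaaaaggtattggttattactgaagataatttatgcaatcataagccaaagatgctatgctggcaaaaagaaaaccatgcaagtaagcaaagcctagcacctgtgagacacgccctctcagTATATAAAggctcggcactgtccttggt
Krt2, chr15:101818170-101818419, minus strand: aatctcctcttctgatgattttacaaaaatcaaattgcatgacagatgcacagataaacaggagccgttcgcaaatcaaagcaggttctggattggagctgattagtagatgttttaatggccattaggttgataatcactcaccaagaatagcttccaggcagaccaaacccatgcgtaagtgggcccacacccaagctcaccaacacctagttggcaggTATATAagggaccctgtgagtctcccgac
Krt77, chr15:101869706-101869955, minus strand: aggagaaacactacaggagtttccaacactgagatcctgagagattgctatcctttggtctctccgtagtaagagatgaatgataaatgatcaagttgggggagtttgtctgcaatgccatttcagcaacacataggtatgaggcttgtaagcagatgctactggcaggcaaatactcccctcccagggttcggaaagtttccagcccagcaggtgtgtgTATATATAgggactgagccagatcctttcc
All 3 windows held these letters close to the start, with the first base 28 bases before it in Krt10, 29 in Krt2 and 30 in Krt77. In Krt10 and Krt77 a second match overlapped the first. On either strand and at any position, 15.6% of 32851 promoter windows of this length held them. The AP-1 letters TGANTCA, present in 6.75% of windows, and the AP-2 letters GCCNNNGGC, present in 13.7%, were found in none of the 3 on either strand. These matches describe the letters of a window and say nothing about the binding of a factor.

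Krt10, Krt1 and Krt2 were higher 1 week after a wound, first or second, than before wounding or 8 weeks after it. Krt77 overlapped between these sets of plates, although both of its 1w pw1 plates lay above both 0w plates. Krt10 was the most abundant of the 4 on every plate per kilobase of transcript. On the 1w pw1 plates it averaged 10840 ± 891 CPM per kilobase (SD, n = 2), against 2682 ± 342 for Krt1, 2456 ± 1513 for Krt2 and 9.81 ± 4.16 for Krt77. The order of Krt1 and Krt2 there lay within the spread between plates. On the plates of 0w the order was Krt10, Krt1 and then Krt2 and Krt77, the last 2 at 2.19 ± 1.98 and 2.86 ± 3.77 CPM per kilobase and not apart beyond their spread.

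**Figure D1:**
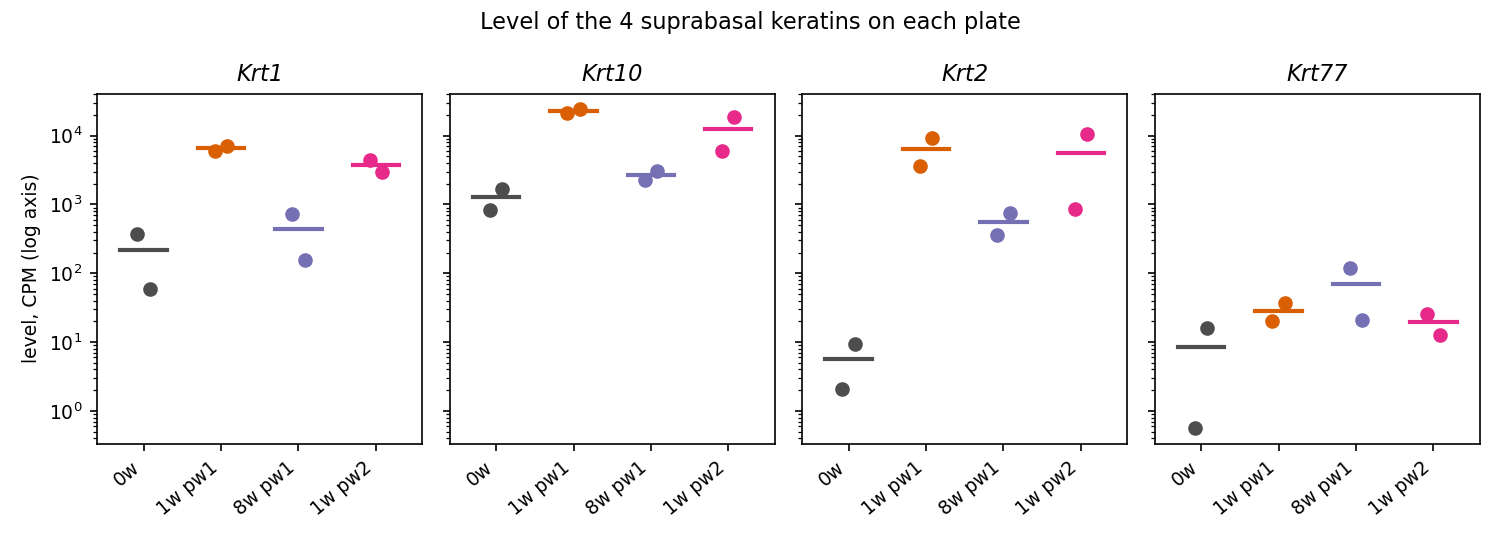
Level of each keratin on each plate as the sum over its cells, in CPM with TMM scaling on a log axis. Points are plates and lines are means of 2 plates. Krt1, Krt10 and Krt2 are higher on all 4 plates taken 1 week after a wound than on the other 4, whereas the points of Krt77 overlap.

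Krt10, the type I keratin of the set, stood at 831 and 1703 CPM on the 0w plates. It was at 21379 and 24017 CPM on the 1w pw1 plates, at 2257 and 3034 CPM on the 8w pw1 plates, and at 5884 and 18932 CPM on the 1w pw2 plates. Every plate taken 1 week after a wound lay above every other plate. Both 8w pw1 plates lay above both 0w plates, as they also did for Krt77. The share of all genes with that order is not given here. Between 0w and 1w pw1 the same kind of order held for 23.0% of all genes. The edgeR log2 fold change from 0w to 1w pw1 was 4.16 (SE 0.66, adjusted p = 0.0276), and leaving out any single plate of these 2 groups raised the adjusted p to between 0.102 and 0.169. From 0w to 1w pw2 it was 3.29 (SE 0.63, edgeR adjusted p = 0.0805). With the plate number as a block the second change passed the threshold (log2 fold change 3.21, edgeR adjusted p = 0.0161), as it did without 1w pw2 plate 1 (edgeR adjusted p = 0.0294).

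Krt1, the type II partner of Krt10, stood at 371 and 59.7 CPM on the 0w plates. It was at 5989 and 7177 CPM on the 1w pw1 plates, at 734 and 154 CPM on the 8w pw1 plates, and at 4401 and 2977 CPM on the 1w pw2 plates. The plates of 0w and 8w pw1 overlapped, and all 4 plates taken 1 week after a wound lay above them. From 0w to 1w pw1 the log2 fold change was 4.93 (SE 0.99), which missed the threshold in edgeR (adjusted p = 0.0666) and passed it with the plate number as a block (5.51, edgeR adjusted p = 0.0125), where 1.03% of 13853 genes tested were called higher. From 0w to 1w pw2 it was 4.10 (SE 0.95, edgeR adjusted p = 0.144), and 4.50 with the block (edgeR adjusted p = 0.0320), where 0.541% of genes were called higher.

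Krt2, the type II keratin of the upper layers, was nearly absent at 0w, with 2.08 and 9.39 CPM on the 2 plates, or 40 and 174 counts. It was at 3621 and 9213 CPM on the 1w pw1 plates, at 363 and 739 CPM on the 8w pw1 plates, and at 868 and 10470 CPM on the 1w pw2 plates. The 0w plates were the lowest of all, an order whose share among all genes is not given here. The 2 plates of 1w pw2 lay on either side of those of 1w pw1. The log2 fold change from 0w was 10.13 at 1w pw1 (SE 1.49, edgeR adjusted p = 0.0209) and 9.95 at 1w pw2 (SE 1.48, edgeR adjusted p = 0.0309). The first call was lost without either 0w plate or without 1w pw1 plate 2 (edgeR adjusted p = 0.0511 to 0.121), and the second without either 0w plate or without 1w pw1 plate 1 (0.0503 to 0.185).

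At 8w pw1 Krt2 had the largest fold change of the 4 from its 0w level. Its log2 value was 6.59 (SE 1.28), which missed the threshold (edgeR adjusted p = 0.357) and passed it with the plate number as a block (6.94, edgeR adjusted p = 0.0254). In the blocked fit 0.0217% of 13853 genes tested were called higher, 3 genes in all, and in the fit without it 0 genes were called in edgeR, with 897 at an unadjusted p under 0.05 and 155 called by DESeq2, Krt2 among the 0.657% that it called higher. Krt10 (log2 fold change 1.06, SE 0.58, edgeR adjusted p = 0.799) and Krt1 (1.04, SE 0.84, edgeR adjusted p = 0.876) were not called at 8w pw1, and without 8w pw1 plate 1 the value for Krt1 turned to -0.47.

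Krt77 had the lowest total of the set, with 3826 counts against 1297382 for Krt10. It was at 0.571 and 16.2 CPM on the 0w plates, 20.1 and 37.4 CPM at 1w pw1, 118 and 20.9 CPM at 8w pw1, and 26.0 and 12.6 CPM at 1w pw2. Its highest plate was thus one of 8w pw1, and the plates of 8w pw1, 1w pw1 and 1w pw2 overlapped. No edgeR comparison called it, and the log2 fold change from 0w to 8w pw1 was 3.05 (SE 1.27, adjusted p = 0.737). This value was 6.86 without 0w plate 2, 2.02 without 0w plate 1 and 1.29 without 8w pw1 plate 1.

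Set against all genes tested, 2 of the 4 were called higher from 0w to 1w pw1, where 0.404% of 13853 genes were, and 1 of the 4 from 0w to 1w pw2, where 0.238% were. A call needed an adjusted p under 0.05 and more than a 2-fold change. The plates of 1w pw1 lay wholly above those of 0w for all 4 genes, which held for 23.0% of all genes, and those of 1w pw2 for 3 of the 4, which held for 21.4%.

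Between 1w pw1 and 8w pw1 Krt1, Krt10 and Krt2 were lower on both later plates, as were 20.2% of all genes. Their log2 fold changes were -3.89 (SE 0.94, edgeR adjusted p = 0.152), -3.10 (SE 0.62, edgeR adjusted p = 0.118) and -3.54 (SE 1.11, edgeR adjusted p = 0.269), with 0.0722% of genes called lower. All 3 passed with the plate number as a block (edgeR adjusted p = 0.0416, 0.0216 and 0.0481), where 0.318% of genes were called lower. From 8w pw1 to 1w pw2 they were higher again, by 3.06 for Krt1 (SE 0.90, edgeR adjusted p = 0.444), 2.23 for Krt10 (SE 0.60, edgeR adjusted p = 0.390) and 3.36 for Krt2 (SE 1.10, edgeR adjusted p = 0.503) on the log2 scale. In edgeR none of these 3 was called with or without the block, and 1 gene of the 13853 was called higher without it, a share of 0.00722%. DESeq2 called all 3 (DESeq2 adjusted p = 0.0138, 0.0324 and 0.0228), among the 0.989% of genes that it called higher. Without 1w pw2 plate 2 the changes of Krt10 and Krt2 were 1.20 and 0.70, and without 8w pw1 plate 1 that of Krt1 was 4.59.

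The change to the second wound can also be set against the change to the first, as the difference of the 2 log2 fold changes, from 8w pw1 to 1w pw2 and from 0w to 1w pw1. It was -6.76 for Krt2 (SE 1.56, edgeR adjusted p = 0.686), and it passed the threshold with the plate number as a block (-7.71, edgeR adjusted p = 0.0436), where 0.0217% of genes were called lower. The levels behind it are the near absence of Krt2 at 0w and its presence at 8w pw1, whereas the plates of 1w pw1 and 1w pw2 overlapped (log2 fold change -0.18, SE 1.00, edgeR adjusted p = 0.980). For Krt10 the difference was -1.93 (SE 0.82, edgeR adjusted p = 0.922), for Krt1 -1.88 (SE 1.19, edgeR adjusted p = 0.967) and for Krt77 -3.63 (SE 1.71, edgeR adjusted p = 0.939). Without the block 0 genes were called in edgeR, with 740 at an unadjusted p under 0.05, and DESeq2 called 77, Krt2 among the 0.346% that it called lower.

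Between the 2 wounds themselves no member was called. Both 1w pw2 plates lay under both 1w pw1 plates for Krt1 (log2 fold change -0.84, SE 0.84, edgeR adjusted p = 0.864) and Krt10 (-0.87, SE 0.58, edgeR adjusted p = 0.803), an order that 17.5% of all genes showed. In this comparison edgeR called 0 genes, with 832 at an unadjusted p under 0.05, and DESeq2 called 41.

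When the 4 plates taken 1 week after a wound were set against the 4 others, Krt10 (log2 difference 3.20, SE 0.44, edgeR adjusted p = 0.00893), Krt2 (6.75, SE 0.91, edgeR adjusted p = 0.00809) and Krt1 (3.99, SE 0.67, edgeR adjusted p = 0.0186) were called higher. That is 3 of 4 members, with 1.03% of genes called higher. For these 3 all 4 plates taken 1 week after a wound lay above the others, as they did for 4.17% of all genes. The call of Krt1 was lost without 1w pw1 plate 1 (edgeR adjusted p = 0.0511) or without 8w pw1 plate 2 (0.0567). Krt77 was not called (log2 difference -0.04, SE 0.84, edgeR adjusted p = 0.991). Some marker lists moved along with this contrast, in part with overlap between plates. The follicle duct and infundibulum list (Krt79, Gata6, Cst6, Krt17 and Sostdc1) summed to 12120 to 31380 CPM on the plates taken 1 week after a wound. On the others it summed to 5660 to 17230 CPM. The bulge list (Cd34, Lgr5, Lhx2, Postn, Krt15 and Sox9) summed to 332 to 1210 CPM on the plates taken 1 week after a wound and to 1038 to 2475 CPM on the others. All 6 of its genes were present on every plate. Its sum is no count of bulge cells, since the paper uses Postn as an infundibulum marker. Krt15 was at 150 and 403 CPM at 1w pw1 and 589 and 776 CPM at 1w pw2, against 489 to 686 CPM on the others. The sebocyte list, also with all 6 genes on every plate, summed to 469 to 900 CPM against 995 to 7387 CPM. Acta2, the single gene in the table of the muscle list, was at 11.4 to 41.8 CPM against 0.0601 to 1.50 CPM. The median share of mitochondrial counts per cell was 22.8% and 30.7% on the 0w plates, 17.9% and 23.9% at 1w pw1, 18.2% and 22.1% at 8w pw1, and 14.3% and 13.0% at 1w pw2, so that both 1w pw2 plates lay under all others. The part of these lists and shares in the keratin values was not tested.

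The sum over a plate rises when more cells make a keratin or when each of them makes more. Cells with at least 1000 CPM of a gene were therefore counted as its carriers. Krt10 had 293 carriers of 696 cells (42.1%), Krt1 157 (22.6%), Krt2 43 (6.18%) and Krt77 5 (0.718%). Cells near this limit, between 500 and 2000 CPM, numbered 70 for Krt10, 32 for Krt1, 10 for Krt2 and 10 for Krt77. For Krt77 alone they outnumbered the carriers. The protocol has no molecular identifiers, so reads of 1 molecule can be counted many times, and the intervals and limits given here cover counting error only.

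**Figure D2:**
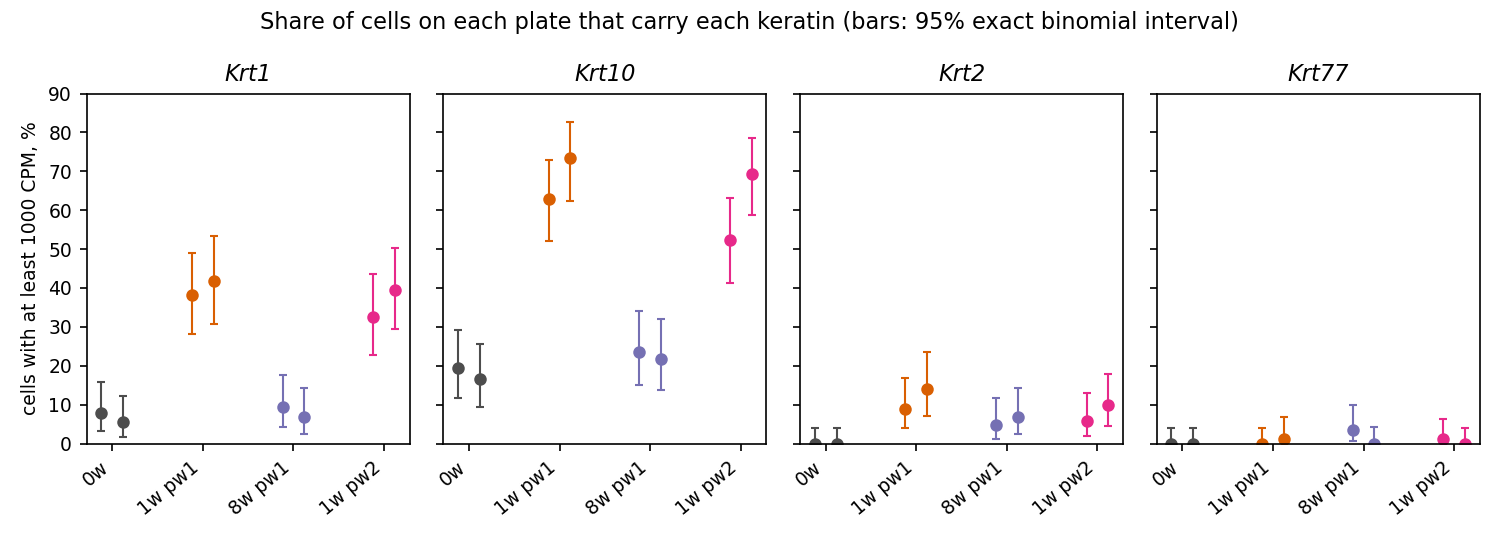
Percent of the cells of each plate that carried each keratin at 1000 CPM or more, with exact 95% binomial intervals. Points are plates. The share for Krt10 lies between 52.3% and 73.4% on the plates taken 1 week after a wound and between 16.5% and 23.5% on the others.

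Krt10 was carried by 19.3% and 16.5% of cells on the 0w plates, 62.9% and 73.4% at 1w pw1, 23.5% and 21.8% at 8w pw1, and 52.3% and 69.2% at 1w pw2. The mean over the 4 plates taken 1 week after a wound was 64.5% ± 9.18 (SD, n = 4), against 20.3% ± 3.07 over the 4 others (exact two-sided permutation test over plates, p = 0.0286, adjusted p = 0.0571 over 6 such tests). A p of 0.0286 is the smallest that 4 against 4 plates can give, and 2 against 2 plates can give none under 0.05. Among carriers the median level overlapped between the plates, at 7272 to 13176 CPM 1 week after a wound and 3200 to 7677 CPM otherwise. Between 0w and 1w pw1 alone it did not overlap, at 3200 and 4673 CPM against 11353 and 13176 CPM, which was not tested. The plates of 8w pw1 (5032 and 7677 CPM) and 1w pw2 (8812 and 7272 CPM) overlapped.

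Krt1 was carried by 7.95% and 5.49% of cells at 0w, 38.2% and 41.8% at 1w pw1, 9.41% and 6.90% at 8w pw1, and 32.6% and 39.6% at 1w pw2. The means were 38.0% ± 3.93 and 7.44% ± 1.66 (SD, n = 4 each, exact two-sided permutation test, p = 0.0286, adjusted p = 0.0571). The median level of Krt1 in its carriers was 5444 to 7756 CPM on the plates taken 1 week after a wound and 3708 to 7703 CPM on the others. The share of carriers was thus separate between the 2 sets of plates, and the level per carrier was not. In that level both 1w pw1 plates (7568 and 7756 CPM) still lay above both 0w plates (3708 and 4347 CPM), which was not tested. The plates of 8w pw1 (5111 and 7703 CPM) and 1w pw2 (7473 and 5444 CPM) overlapped.

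Krt2 was carried by none of the 88 and 91 cells of the 0w plates, which allows a share of up to 3.41% and 3.30%, taking 3 cells as the limit that a count of 0 allows (the exact two-sided 95% intervals in the plot of carriers reach 4.11% and 3.97%). It was carried by 8.99% and 13.9% of cells at 1w pw1, 4.71% and 6.90% at 8w pw1, and 5.81% and 9.89% at 1w pw2. In counts, 8 and 11 cells carried it at 1w pw1, 4 and 6 at 8w pw1, and 5 and 9 at 1w pw2. The 4 against 4 comparison gave 9.65% ± 3.34 and 2.90% ± 3.47 (SD, n = 4 each, exact two-sided permutation test, p = 0.0571, adjusted p = 0.0857). At 0w 9 cells held any Krt2 count, and the highest of them reached 255 CPM.

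Depth differed between cells, so each cell was also thinned to 20000 counts, which left out 12 cells of 0w, 10 cells of 1w pw1, 18 cells of 8w pw1 and 11 cells of 1w pw2. After thinning, Krt10 was detected in 77.1% to 85.9% of cells on the plates taken 1 week after a wound and in 49.3% to 51.9% on the others, and unthinned in 84.9% to 92.4% and 54.0% to 61.4%. Krt1 was detected in 47.0% to 57.7% and 8.64% to 22.2% after thinning, and in 55.8% to 68.4% and 12.1% to 27.1% before it. The carriers of Krt10 had a median of 156885 counts and cells with none of the 4 keratins a median of 115147.

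A few cells held much of each plate's sum. For Krt2 the single highest cell gave 37.3% to 87.5% of the counts of a plate, and 1 or 2 cells gave more than 50% of them on every plate. On 1w pw2 plate 2, where Krt2 was highest, 1 cell gave 70.0% of its counts, and that cell devoted 16.1% of its own counts to Krt2 and 13.9% to Krt10. For Krt10, 2 to 7 cells gave 50% of a plate's counts, and for Krt1 1 to 6. The level of Krt2 on a plate therefore rested on very few cells.

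Krt10 was the keratin that the carriers of the others shared. All 43 carriers of Krt2 and all 5 carriers of Krt77 also carried Krt10, as did 150 of 157 carriers of Krt1 (95.5%), where 42.1% of all cells carried it. Of the carriers of Krt2, 32 also carried Krt1, and none of the 5 carriers of Krt77 held a single count of Krt1 or Krt2. Counted as sets, 118 cells carried Krt1 and Krt10, 32 carried Krt1, Krt10 and Krt2, 11 carried Krt10 and Krt2, 5 carried Krt10 and Krt77, 127 carried Krt10 alone, 7 carried Krt1 alone, and 396 carried none. The share of Krt1 carriers that also carried Krt2 was 0 of 12 at 0w, 15 of 67 at 1w pw1, 7 of 14 at 8w pw1 and 10 of 64 at 1w pw2, and its differences were not tested.

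**Figure D3:**
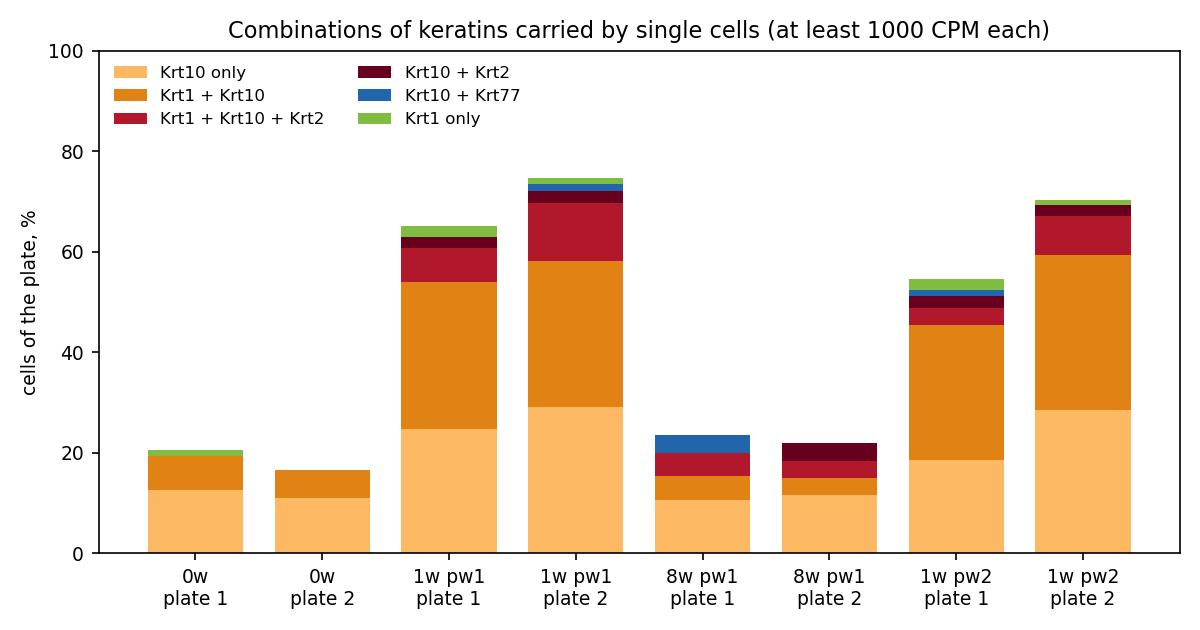
Percent of the cells of each plate with each combination of keratins at 1000 CPM or more. Bars are plates, and the space above a bar is the share of cells with none. Krt10 is part of nearly every combination, and combinations with Krt2 are absent from both 0w plates.

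Across the cells of a plate, log2 levels of Krt1 and Krt10 were correlated with a mean Pearson r of 0.604 over the 8 plates (0.515 to 0.688). This is a description over cells, which share plate and depth. For Krt10 and Krt2 the mean was 0.367 and for Krt1 and Krt2 also 0.367, the last ranging from 0.0243 to 0.770 between plates. Krt77 had a mean r of 0.224 with Krt10, -0.112 with Krt1 and -0.07 with Krt2. Within the 43 cells that carried both, Krt2 and Krt10 had r = 0.576, whereas within the 32 cells that carried Krt1 and Krt2 these had r = -0.37.

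Krt10 was the higher of the pair in most cells that carried it with Krt1. Among the 150 cells that carried both, the median ratio of Krt1 to Krt10 per kilobase was 0.451, the middle 50% of cells lay between 0.220 and 0.814, and Krt1 exceeded Krt10 in 27 cells. Among the 43 cells with Krt2 and Krt10, Krt2 exceeded Krt10 in 3, with a median ratio of 0.328. Among the 32 cells with Krt2 and Krt1, each was the higher in 16, with a median ratio of 0.907 and a range from 0.0249 to 130. Krt10 thus exceeded either type II keratin in most cells, and neither of the 2 type II keratins led the other.

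Summed over a plate, the 3 type II keratins per kilobase reached 0.383 and 0.0411 times Krt10 at 0w, 0.375 and 0.563 times at 1w pw1, 0.444 and 0.243 times at 8w pw1, and 0.759 and 0.578 times at 1w pw2. On the log2 scale the mean was -0.86 ± 0.42 on the plates taken 1 week after a wound and -2.30 ± 1.58 on the others (SD, n = 4 each, exact two-sided permutation test, p = 0.0857, adjusted p = 0.103). The lowest value, -4.61, was that of 0w plate 2, and without this plate the difference was 0.67 in place of 1.44. With every cell weighted equally it was 0.58 (exact two-sided permutation test, p = 0.343, adjusted p = 0.411), and 1 of the 4 plates taken 1 week after a wound lay above all others.

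The carriers of Krt10 fell into sets that differed in what else they carried. In 161 of them Krt1 or Krt2 was also carried, and in 132 neither was. Krt79, a type II keratin of the follicle duct and infundibulum, was carried by 121 of the 132 (91.7%) and by 23 of the 161 (14.3%). Cst6, an inhibitor of cysteine proteases that is strong in the same duct, was carried by 117 of the 132 (88.6%) and by 24 of the 161 (14.9%). On all 8 plates both were carried by a larger share of the Krt10 cells without Krt1 or Krt2. For Krt79 the plates ranged from 76.9% to 100% in these cells and from 0% to 23.5% in the others, with no overlap. Krt17, a keratin of follicles and of stressed epidermis, was carried by 51.5% and 19.9% of these sets.

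The 161 cells with Krt1 or Krt2 differed in the other direction in Calm4, a calmodulin-like protein of differentiating keratinocytes, and in Mt4, a metallothionein of stratified epithelia. Calm4 was carried by 80.7% of them and by 47.0% of the 132, and by the larger share on 8 of 8 plates. Mt4 was carried by 32.9% and 1.52%. Both sets carried Krtdap, a keratinocyte differentiation gene (93.2% and 76.5%), and Dsg1a, a desmoglein of the suprabasal layers (79.5% and 84.1%). The median level of Krt10 was 14860 CPM in the 161 cells and 4147 CPM in the 132.

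**Figure D4:**
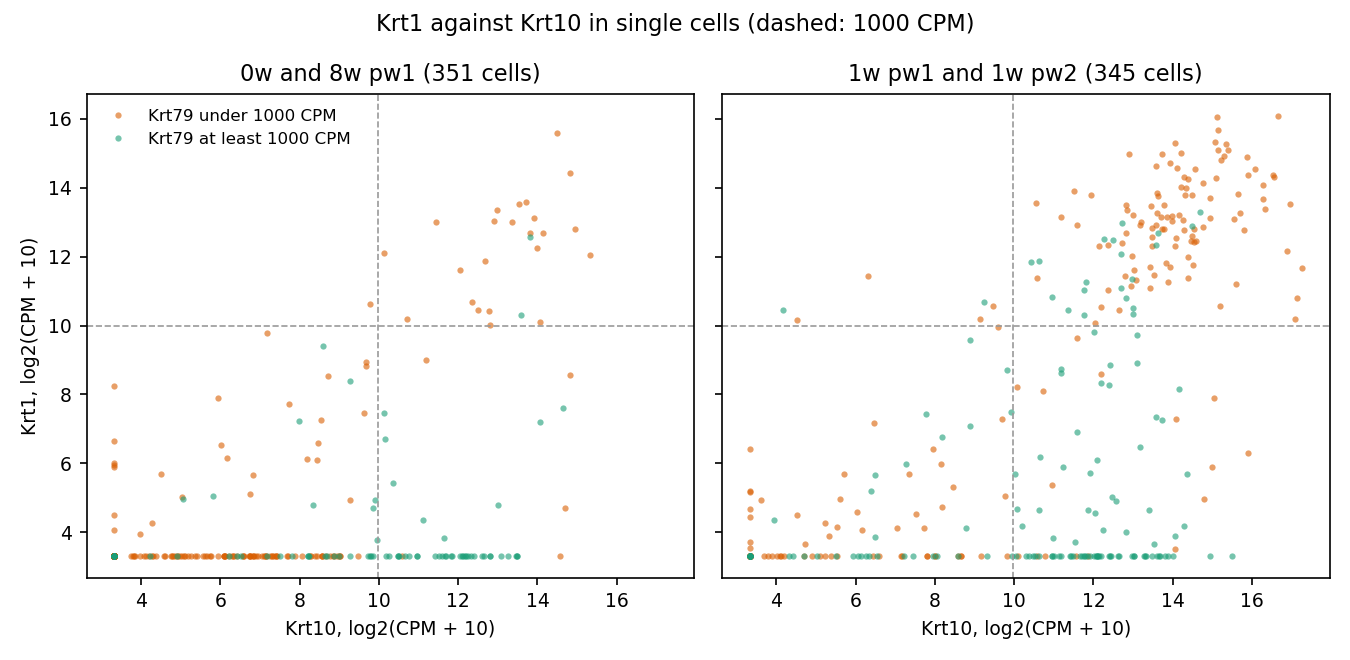
Krt1 against Krt10 in single cells, both as log2(CPM + 10), for the 351 cells of 0w and 8w pw1 and the 345 cells of 1w pw1 and 1w pw2. Colours mark Krt79 above or below 1000 CPM and dashed lines mark 1000 CPM. Cells with both keratins are mostly without Krt79, and cells with Krt10 but little Krt1 mostly carry it.

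**Figure D5:**
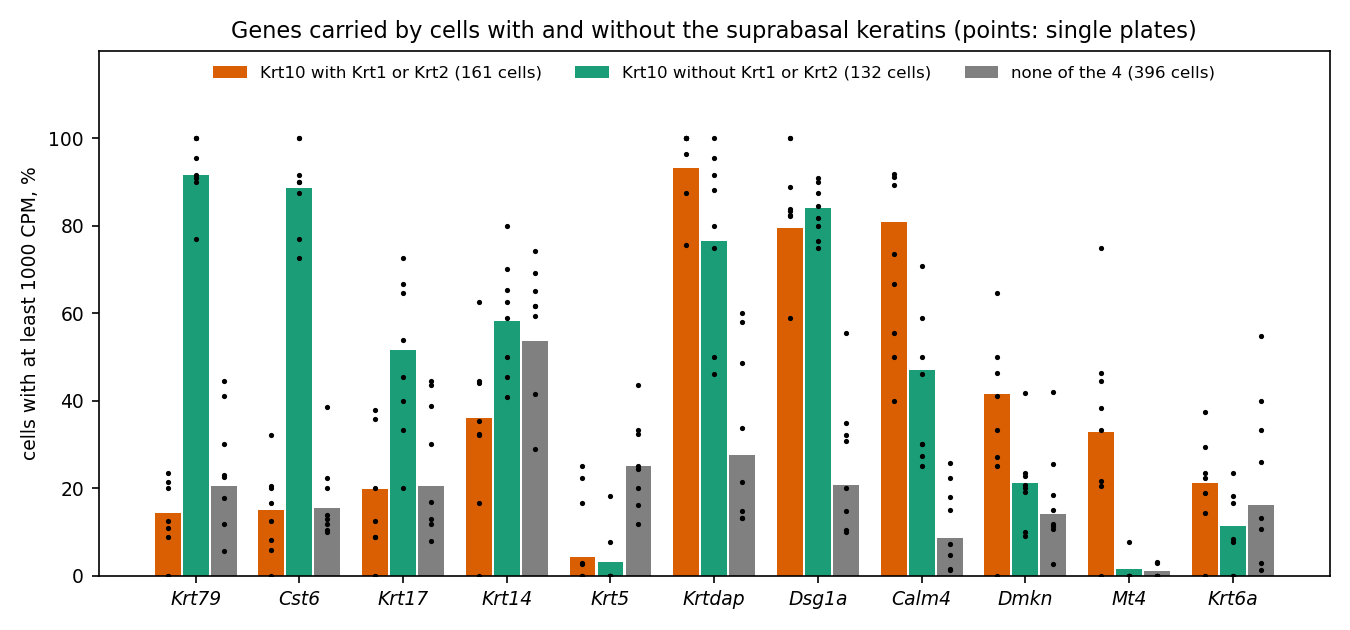
Percent of cells with at least 1000 CPM of further genes, among Krt10 carriers with Krt1 or Krt2, Krt10 carriers without them, and cells with none of the 4 keratins. Bars are all cells of a set and points single plates. Krt79 and Cst6 separate the 2 sets of Krt10 carriers on every plate, whereas Krtdap and Dsg1a do not.

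Both sets of Krt10 carriers took a larger share of cells 1 week after a wound. Those with Krt1 or Krt2 made up 6.82% and 5.49% of cells at 0w, 38.2% and 43.0% at 1w pw1, 9.41% and 10.3% at 8w pw1, and 32.6% and 40.7% at 1w pw2. Those without made up 12.5% and 10.99%, 24.7% and 30.4%, 14.1% and 11.5%, and 19.8% and 28.6% of cells at the same time points. In either set every plate taken 1 week after a wound lay above every other plate (38.6% ± 4.49 against 8.02% ± 2.25, and 25.9% ± 4.70 against 12.3% ± 1.38, SD, n = 4 each). These 2 sets were drawn after the values were seen, and together they make up the Krt10 carriers tested above. Of the 161 cells of the first set, 150 were carriers of Krt1, also tested above. The shares of the 2 sets are therefore a description, without a p-value.

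Krt5, of the basal layer, was carried by 8 of 157 carriers of Krt1, 11 of 293 of Krt10 and 1 of 43 of Krt2, and by 99 of the 396 cells with none of the 4. Its partner Krt14 was carried by 63 of 157, 135 of 293 and 8 of 43, against 212 of 396. The 7 cells that carried Krt1 without Krt10 carried Krt14 in 6 cases, at a median of 4301 CPM, and had a median of 557 CPM of Krt10.

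Lor and Flg, which encode loricrin and filaggrin of the granular layer and the cornified envelope, were rare in all cells. Among the 293 carriers of Krt10, 1 carried Lor and 2 carried Flg, and among the 396 cells with none of the 4 keratins 2 and 1 did. Of the 43 carriers of Krt2, 0 carried Lor or Flg (which allows a share of up to 6.98%) and 5 held any Lor count. None of the 161 Krt10 cells with Krt1 or Krt2 reached 1000 CPM of either gene.

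Cells with Krt77 carried the duct genes Krt79 and Cst6. In all, 36 cells held at least 100 CPM, its 5 carriers among them, a lower limit used because so few reached 1000. All 36 carried both, at medians of 12600 and 54780 CPM, 29 carried Krt10, and 1 carried Krt1. All 5 carriers carried Krt79, Cst6 and Krt17. Of the 5, 3 were on 8w pw1 plate 1, where the highest cell, at 2287 CPM, held 62.3% of the Krt77 counts of the plate.

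The genes most like each keratin across the cells of a plate were ranked among 11958 genes with a count in at least 35 cells, by the mean of the 8 within-plate Pearson r of log2 levels. Those nearest to Krt1 were Mt4 (mean r 0.711), Calm5 (0.597), Serpinb12 (0.594), Oas1f (0.577) and Calm4 (0.570). For Krt10 they were Calm4 (0.674), the desmosomal cadherins Dsc1 (0.632) and Dsg1a (0.624), Gltp (0.601) and Krtdap (0.586). Krt2 had Mt4 (0.495), Mettl7a3 (0.443), Krt24 (0.437), Serpinb12 (0.404) and Oas1f (0.395), with lower and more variable values that ran from -0.05 to 0.732 between plates for Mt4. For Krt77 they were Slc46a2 (0.643), Gsdma (0.590), Calhm5 (0.575), Psapl1 (0.543) and Calhm6 (0.537). The lists of Krt1 and Krt2 shared Mt4, Serpinb12 and Oas1f, and that of Krt77 shared no gene with the other 3.

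The 4 keratins took a larger part of all keratin counts 1 week after a wound. They held 22.1% and 31.0% of keratin counts at 0w, 56.9% and 69.7% at 1w pw1, 30.9% and 26.2% at 8w pw1, and 45.4% and 67.9% at 1w pw2. The means were 59.95% ± 11.3 and 27.5% ± 4.25 (SD, n = 4 each, exact two-sided permutation test, p = 0.0286, adjusted p = 0.0571). As a share of all counts they ranged from 0.140% on a 0w plate to 3.49% on a 1w pw1 plate.

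Other genes of the differentiation programme were read from lists chosen with earlier results of these data known. Of 15 spinous layer genes, 5 were called higher and none lower from 0w to 1w pw1, where 0.404% of all genes were called higher. The 5 were Calm4, Ptgs1, Sfn, Them5 and Serpinb12. The median log2 fold change of the 15 was 2.55, against -0.04 over all genes. From 0w to 1w pw2, 3 of the 15 were called higher (median 1.73 against 0.05), where 0.238% of all genes were. In the contrast of the 4 plates taken 1 week after a wound with the 4 others 9 of the 15 were (median 1.80 against -0.003), where 1.03% of all genes were. Calm4 ran from 210 to 356 CPM on the plates of 0w and 8w pw1 and from 1952 to 4677 CPM on the others. Serpinb12, a serpin of squamous epithelia, ran from 1.46 to 14.2 CPM and from 106 to 647 CPM. Krtdap was at 961 to 1998 CPM and 2104 to 11643 CPM (log2 difference 1.93, SE 0.38, edgeR adjusted p = 0.0345).

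Of 15 granular layer and cornified envelope genes tested, 1 was called higher from 0w to 1w pw1, Casp14, a protease of terminal differentiation (log2 fold change 4.08, SE 0.69, edgeR adjusted p = 0.0370), and none from 0w to 1w pw2. Lor was at 0.0652 to 21.6 CPM and Flg at 0.936 to 444 CPM across the 8 plates, and neither was called in any comparison. Of 23 regulators of differentiation, 0 were called by edgeR from 0w to 1w pw1 or 1w pw2 or in the 4 against 4 contrast, where 0.404%, 0.238% and 1.03% of all genes were called higher, shares too small to set the list apart from other genes. Their median log2 difference in the last was 0.73, against -0.003 over all genes. Of 10 desmosome genes, Dsc2 was called higher from 0w to 1w pw1 (log2 fold change 4.48, SE 0.67, edgeR adjusted p = 0.0217).

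Among other keratins, 3 of the 4 stress keratins were called higher from 0w to 1w pw1 and to 1w pw2, where 0.404% and 0.238% of all genes were. Krt6a was at 49.9 and 50.7 CPM at 0w, 5798 and 3230 CPM at 1w pw1, 334 and 354 CPM at 8w pw1, and 1070 and 1259 CPM at 1w pw2. Krt16, its type I partner, was at 0.727 and 1.62 CPM at 0w, 2421 and 1776 CPM at 1w pw1, 42.0 and 36.1 CPM at 8w pw1, and 276 and 1037 CPM at 1w pw2. Krt6b was listed at 0 on both 0w plates and reached 5141 and 2464 CPM at 1w pw1. No basal keratin was called in these comparisons: Krt5 ran from 209 to 724 CPM and Krt14 from 903 to 4590 CPM over the 8 plates. Of the keratins that mark the tail scales, Krt84 was called in the 4 against 4 contrast (edgeR adjusted p = 0.0345), where 1w pw2 plate 2 stood at 449 CPM and the other 7 plates at 0 to 12.5 CPM. Krt24, the keratin found near Krt2 across cells, was called higher there too (log2 difference 3.41, SE 0.67, edgeR adjusted p = 0.0353), with 1.03% of all genes called higher.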

How the data were processed

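RNA of single tdTomato-positive cells was made into cDNA with a modified Smart-seq2 protocol, amplified with 25 PCR cycles and read as single 75-base reads, without molecular identifiers. Per the labels and the study's methods, the authors quantified transcripts with Salmon 0.13.1 against the GRCm38 (mm10) annotation, processed cells in Seurat (R 4.0.3), removed cells with few genes or a high mitochondrial share, and deposited estimated counts per gene and cell, of which 96.6% were whole. All 696 columns matched the title of one sample.

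Counts were summed per plate, rounded and tested in edgeR 4.0.16 (quasi-likelihood, TMM scaling, filterByExpr, all 8 plates in one fit with a term per time point, 4 residual degrees of freedom) over 13853 genes, with Benjamini-Hochberg adjustment. CPM on a plate uses TMM-scaled totals, and CPM in a cell the total of that cell. The common biological coefficient of variation was 0.61. The fit was tested on simulated data. Plates with the same number deviated together (correlations of 0.121 to 0.213 in all 6 pairs of time points), so a fit with the plate number as a block is given where it changed a call. Levels per kilobase use the length of the principal transcript in GENCODE vM21. Exact permutation tests were run over plates (scipy 1.17.1).

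Alternatives were DESeq2 1.42.0, the replicate block, no filter, totals without TMM, equal weight for every cell, only the plates compared, only cells with 50000 counts, leaving out the deepest cell or a plate, carrier limits of 100 and 10000 CPM, and thinning to 10000 counts. Leaving out the cell with most counts of a gene on each plate was added after seeing the data. Named genes are the 4 members, genes of the lists called in a comparison, Krt5, Krt14, Krt6a, Krt16, Lor and Flg, and the 5 genes most like each member. Genes described in the sets of Krt10 carriers, and Krt84, were chosen after their values were seen. The members and lists were chosen with earlier results of these data known.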

Additional observations from a re-analysis of the deposited data

Results flagged for a closer look

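In each set of 4 plates, those taken 1 week after a wound and the others, the highest and lowest plate were compared with the rest by Dixon's test for each level and share. Chance marks about 1 in 20 such sets. Of the 20 sets tested, 2 stood out. The level of Krt10 on 1w pw2 plate 1, as log2(CPM + 10), was 12.5, the lowest of the 4 plates taken 1 week after a wound and far from the other 3. The share of Krt77 carriers on 8w pw1 plate 1 was 3.53%, or 3 of 85 cells, where the other 3 plates of 0w and 8w pw1 had none. With 3 plates tied at 0 any carrier on the other plate gives this result, so it is a description and no test.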

How the results depend on the processing

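No called change of Krt1, Krt10 or Krt2 turned its direction under any alternative. With DESeq2 these log2 changes passed the threshold that edgeR missed: Krt1 4.94 (0w to 1w pw1), 4.07 (0w to 1w pw2), -3.94 (1w pw1 to 8w pw1) and 3.07 (8w pw1 to 1w pw2); Krt10 3.24, -3.13 and 2.22 in the last 3; Krt2 6.55 (0w to 8w pw1), -3.57 and 3.34 in the last 2, and -6.77 for the second wound against the first. With the replicate block they were Krt1 5.51, 4.50 and -4.41, Krt10 3.21 and -3.14, and Krt2 6.94, -3.44 and -7.71, and the block changed no other call. With every cell weighted equally Krt1 passed from 0w to 1w pw1 (4.34) and to 1w pw2 (3.48), and Krt2 from 0w to 8w pw1 (7.48). With only the plates compared Krt1 passed from 0w to 1w pw1 (4.95). Krt2 from 0w to 1w pw2 was lost with only the plates compared (9.90) and without the deepest cells (9.84). Values that were not called changed sign as follows. Krt2 from 1w pw1 to 1w pw2 was 0.09 without TMM and 0.10 without the deepest cells. Krt77, 1 week after a wound against the other plates, was 1.00 with cells weighted equally, 0.50 without the deepest cells and 0.21 without its top cell on each plate, and its carrier share differed by 0.689 points at 100 CPM. At 100 CPM the carrier share of Krt2 (difference 8.81 points) had an adjusted p of 0.0429 in an exact permutation test, since 4 of the 6 tests adjusted together then gave the smallest possible p.

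Leaving out 1 plate at a time, log2 changes from 0w to 1w pw1 were 4.14 to 6.75 for Krt1, 3.70 to 4.76 for Krt10 and 9.28 to 11.58 for Krt2. From 0w to 1w pw2, Krt10 was 2.22 to 3.88 and Krt2 7.24 to 11.38. From 0w to 8w pw1, Krt1 was -0.47 to 2.81. For the 4 plates against 4, Krt1 was 3.61 to 4.93 and Krt77 -0.50 to 1.91, with a carrier share difference of -0.569 to 0.607 points for Krt77. From 8w pw1 to 1w pw2, Krt1 was 2.39 to 4.59, Krt10 1.20 to 2.84 and Krt2 0.70 to 4.25. Krt2 from 1w pw1 to 1w pw2 was -2.86 to 0.69, Krt77 from 0w to 8w pw1 1.29 to 6.86, and Krt77 from 1w pw1 to 8w pw1 -0.46 to 1.99. Why these calls moved was not tested. With totals without TMM the median log2 fold change of all genes from 0w to 1w pw1 was -0.397, against -0.036 in the main fit. Krt2 and Krt77 rest on 43 and 5 carriers.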
